A study of Homo sapiens with 13 samples.

Results

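The 3 fibrinogen chains, a fibrinogen-like protein and 6 proteins that start, carry or restrain coagulation were followed through 13 RNA sequencing libraries of A549, an established human cell line from a lung adenocarcinoma. The 10 genes are FGA, FGB, FGG, FGL1, F2, F3, F5, F10, TFPI and TFPI2. They were chosen by name, with their values in these libraries already known, and all 10 stand among the 16998 gene symbols that the 3 deposited tables share. Levels and ratios are therefore given as descriptions, with no test. Each group is 1 library, so no ratio has a replicate check, and each compares libraries rather than conditions.

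The libraries probe a unit on chromosome 17 that holds PRR11, SKA2, miR301a and miR454. The CRISPR interference set pairs CRISPRi_PRR11+SKA2 promoter-sgRNA#1, a stable line with a guide against the promoter that both genes share, with CRISPRi_Mock sgRNA. Stable lentiviral lines, with the introduced gene under a CMV promoter, carry PRR11 (LV-PRR11), SKA2 (LV-SKA2) or both (LV-P+S) beside LV-vector-PS, and miR301a (LV-miR301a), miR454 (LV-miR454) or both (LV-3+4) beside LV-vector-34. The CRISPRd set holds knockouts of the precursors of miR301a (CRISPRd_miR301a-#2) and miR454 (CRISPRd_miR454-#1) beside CRISPRd_Control. All lines were grown in DMEM/F12 with serum, and the sources used here do not say whether a line is 1 clone.

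Fibrinogen is a secreted protein built from paired alpha, beta and gamma chains, encoded by FGA, FGB and FGG, and thrombin turns it into the fibrin mesh of a clot. Coagulation starts when tissue factor binds factor VII, proceeds through factor X and its cofactor factor V to thrombin, and is held back at its start by tissue factor pathway inhibitor. The liver makes most fibrinogen and raises it in the acute phase response, when interleukin-6 acts through STAT3, but lung epithelial cells and A549 can make it too.

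FGB, FGA and FGG lie side by side at chr4:154562956-154612967 (GRCh38), a stretch of 50012 bases, with FGB on the plus strand and FGA and FGG on the minus strand. The other genes are scattered: F3 at chr1:94529225-94541800, F5 at chr1:169514166-169586588, TFPI at chr2:187464230-187565760 and TFPI2 at chr7:93885396-93890991 lie on minus strands, and F2 at chr11:46719180-46739506 and F10 at chr13:113122814-113149529 on plus strands. RefSeq promoter windows (GRCh38.p14, 250 bases before the start site) were used for 9 of the 10 genes, and FGL1 was left out. Those of FGA, FGB and F3 are shown, because the chain genes moved together and F3 moved apart from them. They are printed without the bases nearest the start that lie in an annotated exon. FGA is chr4:154590767-154590992 on the minus strand, FGB is chr4:154562730-154562955 on the plus strand and F3 is chr1:94541801-94542009 on the minus strand. Capitals mark matches on either strand to 5 motifs: the TATA box (TATAAA), the core of the interleukin-6 response element (CTGGGA), the C/EBP site (TTGCNNCAA), the AP-1 site (TGANTCA) and the Sp1 site (GGGCGG).
FGA promoter: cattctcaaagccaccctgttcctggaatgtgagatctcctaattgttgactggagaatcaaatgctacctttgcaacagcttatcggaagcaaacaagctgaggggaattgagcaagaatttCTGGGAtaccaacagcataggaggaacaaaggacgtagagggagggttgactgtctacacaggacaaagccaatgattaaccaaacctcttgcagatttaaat
FGB promoter: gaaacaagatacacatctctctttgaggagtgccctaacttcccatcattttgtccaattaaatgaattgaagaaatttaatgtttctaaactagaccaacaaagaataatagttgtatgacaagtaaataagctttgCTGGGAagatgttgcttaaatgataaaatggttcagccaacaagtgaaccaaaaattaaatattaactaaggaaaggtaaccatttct
F3 promoter: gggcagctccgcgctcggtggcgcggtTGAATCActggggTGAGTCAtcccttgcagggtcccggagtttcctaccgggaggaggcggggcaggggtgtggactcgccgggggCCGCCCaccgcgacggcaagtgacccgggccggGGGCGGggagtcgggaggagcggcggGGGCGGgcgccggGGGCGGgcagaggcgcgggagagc
The interleukin-6 core stands in FGA, FGB, FGG, F2, F5 and F10, against 28.7% of all 35116 promoter windows. F3 and TFPI2 hold AP-1 sites (6.57% of all windows), and F3, F10 and TFPI2 hold Sp1 sites (42.6%). The TATA box was found in F3 alone among the 9 (10.7% of all windows), close to its start site and past the printed stretch, and the C/EBP site in none of the 9 (1.62%). A match is a description of letters, not a bound site, and FGB has a second RefSeq start that was not used.

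The microRNAs that the study manipulated share a seed, bases 2 to 8, here in capitals, so they can pair with the same target sites. Their mature forms lie at chr17:59151149-59151171 (miR-301a-3p) and chr17:59137787-59137809 (miR-454-3p) on the minus strand.
hsa-miR-301a-3p: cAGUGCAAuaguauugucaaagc
hsa-miR-454-3p: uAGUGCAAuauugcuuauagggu
F3 target site: aaatgctataTTGCACTgtgaccgaga
The site that pairs with the seed, TTGCACT, was searched in the longest 3′ UTR of each of the 10 genes. F3 alone holds it, at position 35 of its UTR, shown above with 10 bases on either side and the site in capitals. Of 19120 genes with a 3′ UTR, 14% hold at least 1 such site.

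Library depth was even, from 18672570 to 21717807 counts, and 3 counts correspond to 0.136 to 0.165 CPM (counts scaled to a common library size, the unit of level used throughout). PRR11 fell to 14 counts under CRISPRi, against 2029 in the mock library, and SKA2 to 5 against 1594. SKA2 counts went against the labels of LV-SKA2 (1130) and LV-P+S (1206), both under LV-vector-PS (1349). PRR11 differed little from LV-vector-PS (111 CPM) in LV-PRR11 (121 CPM) and the library labelled LV-P+S (122 CPM). Reads of MIR454 went against those of LV-miR301a (28 counts) and LV-3+4 (0), beside 468 in LV-miR454. MIR301A had 29 counts in LV-miR301a, 34 in LV-3+4 and 0 in LV-miR454, so LV-miR301a held reads of both loci and LV-3+4 of MIR301A alone. The 4 libraries at odds with their labels are called the libraries labelled so. Neither microRNA locus had a read in any CRISPRd library, so the knockouts are not checked by these counts. All 8 A549 and lung carcinoma markers were at 1 CPM or more in all 13 libraries, and CDKN2A, which A549 lacks, was at or under 0.318 CPM. The marker sum ran from 21928 CPM in CRISPRd_Control to 36188 CPM in CRISPRd_miR454-#1. EPCAM had 43 counts in the miR301a and 50 in the miR454 knockout, against 158 in LV-vector-34, while KRT8, KRT18 and AKR1C1 were higher there. Hepatocyte markers summed to 1.37 to 4.04 CPM, with ALB, the gene of albumin, at 0.0453 to 0.428 CPM.

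Across the 13 libraries, 9 of the 10 genes were at 1 CPM or more in every library. Only F10, the gene of factor X, stayed under 1 CPM throughout, from 0.0539 CPM (1 count) in CRISPRd_miR301a-#2 to 0.642 CPM (12 counts) in the library labelled LV-SKA2. The nearest value above that line was F2 at 1.52 CPM. Normalised for the joined length of all annotated exons of a gene, the median level over the libraries was highest for TFPI2 at 118 CPM per kb. FGB (24.4), FGA (21.5) and FGG (11.9 CPM per kb) came next. TFPI (7.36), FGL1 (6.28), F5 (2.29), F2 (1.83), F3 (1.61) and F10 (0.133 CPM per kb) followed. This order depends on the annotation, since joined exons can be longer than a message. Those of TFPI come to 11714 bases over 12 transcripts. In plain CPM the median of TFPI (86.2) lay beside that of FGA (85.2) and above FGB (66.2) and FGG (42.8). The tables list different genes and were normalised separately, so levels set across them are approximate, and ratios were formed within a table.

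**Figure D1:**
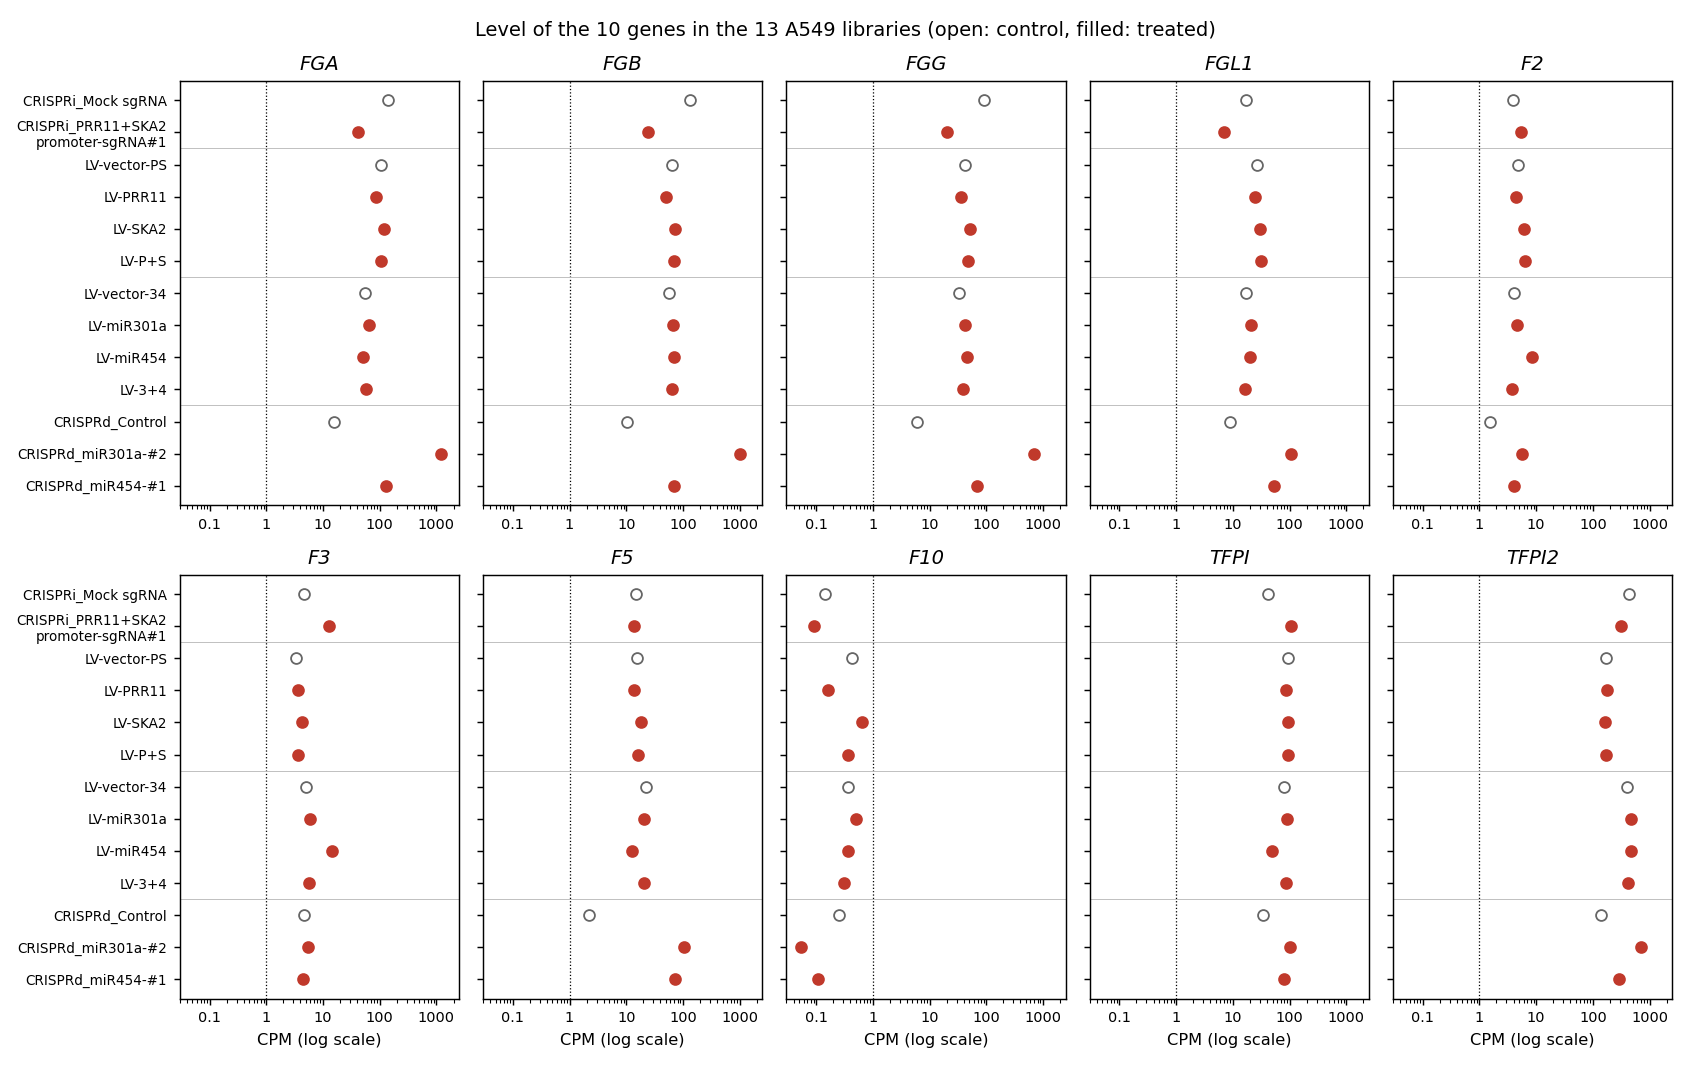
Level of each of the 10 genes (CPM, log axis) in the 13 libraries, 1 point per library, open for controls and filled for treated libraries, with grey lines between the sets and a dotted line at 1 CPM. The fibrinogen chains span 15.8 to 1220 (FGA), 10.4 to 994 (FGB) and 5.93 to 699 CPM (FGG), with CRISPRd_Control lowest and CRISPRd_miR301a-#2 highest, while F10 stays under 1 CPM.

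The fibrinogen chains had the widest range of the genes above 1 CPM. FGA stood at 1220 CPM in CRISPRd_miR301a-#2, at 131 CPM in CRISPRd_miR454-#1 and at 15.8 CPM in CRISPRd_Control. FGB stood at 994, 70.5 and 10.4 CPM in the same libraries, and FGG at 699, 68.9 and 5.93 CPM. The miR301a knockout lay far above every other library and its control far below, and the miR454 knockout lay between them. FGA was 77.4-fold (exact 95% counting interval 69.2 to 86.9), FGB 95.3-fold (83 to 110) and FGG 118-fold (98.3 to 143) higher in the miR301a knockout than in CRISPRd_Control. In the miR454 knockout the chains were 8.34-fold, 6.75-fold and 11.6-fold higher. Between the knockouts themselves, the miR301a line was higher by 9.28-fold for FGA, 14.1-fold for FGB and 10.1-fold for FGG. The summed chains made up 0.291% of all counts in the miR301a knockout and 0.00321% in CRISPRd_Control. FGA ranked 78th of all genes by CPM in the former and 8606th in the latter.

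CRISPRd_Control itself stands apart for these genes. Against LV-vector-34, a control in the same table, FGA was 3.53-fold, FGB 5.48-fold and FGG 5.58-fold lower in it. F2 was 2.65-fold, F5 9.95-fold, TFPI 2.39-fold and TFPI2 2.88-fold lower. These 7 of 9 measured genes passed the size rule, a change of at least 2-fold on log2(CPM + 0.5) with a counting interval that excludes equality, on genes with 20 counts over the pair and 1 CPM in either library. Of all genes measured in that pair, 4.35% passed in either direction and 2.62% were lower. FGL1 was at 52.5% and F3 at 91.7% of LV-vector-34, and neither passed. The lentiviral microRNA libraries also lay above CRISPRd_Control. In the library labelled LV-miR301a 8 of 9 genes passed (4.92% of all genes), in LV-miR454 8 (5.59%) and in the library labelled LV-3+4 7 (4.37%), each of them higher. The knockouts were therefore set against both controls. Against LV-vector-34, FGA was 21.9-fold (20.6 to 23.3), FGB 17.4-fold (16.4 to 18.5) and FGG 21.1-fold (19.5 to 22.9) higher in the miR301a knockout. In the miR454 knockout FGA was 2.36-fold and FGG 2.08-fold higher, and FGB, at 1.23-fold (1.14 to 1.34), did not pass.

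**Figure D2:**
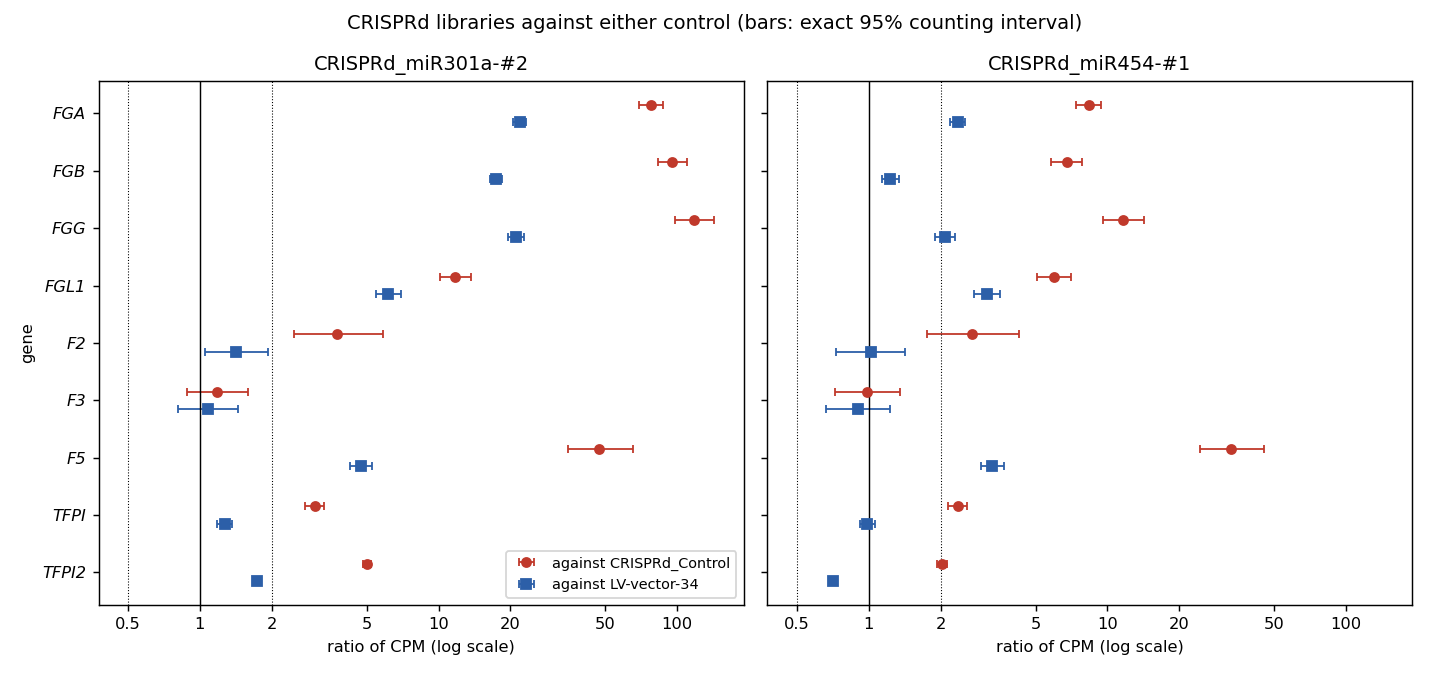
Ratio of CPM (log axis) of 9 genes in CRISPRd_miR301a-#2 (left) and CRISPRd_miR454-#1 (right), against CRISPRd_Control (circles) and LV-vector-34 (squares), with exact 95% counting intervals of single libraries, a solid line at equality and dotted lines at 2-fold. In the miR301a knockout the fibrinogen chains are 77.4 to 118-fold higher against the first control and 17.4 to 21.9-fold against the second, and F3 lies at 1.18 and 1.08.

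FGL1, a liver-secreted relative of fibrinogen that is also a ligand of the immune checkpoint LAG3, followed the chains at a smaller size. It stood at 106 CPM in the miR301a knockout, 54.1 CPM in the miR454 knockout and 9.07 CPM in their control, or 11.7-fold (10.1 to 13.7) and 5.96-fold (5.08 to 7.03) higher. Against LV-vector-34, at 17.3 CPM, the folds were 6.16 and 3.13, and both passed. FGL1 thus passed in both knockouts against either control.

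Among the factors, F5, the cofactor that speeds thrombin formation, stood at 105 CPM in the miR301a knockout and 73.3 CPM in the miR454 knockout, against 2.23 CPM in CRISPRd_Control. That is 47.1-fold (35 to 65.1) and 32.9-fold (24.4 to 45.5) higher, on 44 control counts. Against LV-vector-34, at 22.2 CPM, F5 was 4.74-fold and 3.3-fold higher. Unlike the chains, F5 differed little between the knockouts, at 1.43-fold (1.34 to 1.54), which did not pass. F2, which encodes prothrombin, was low, at 5.71 and 4.12 CPM in the knockouts and 1.52 CPM (30 counts) in their control. It was 3.76-fold and 2.71-fold higher against CRISPRd_Control, and at 1.42-fold and 1.02-fold of LV-vector-34 it did not pass.

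The inhibitors gave smaller ratios. TFPI, the main inhibitor of tissue factor, was at 102 and 79.1 CPM in the miR301a and miR454 knockouts and 33.5 CPM in CRISPRd_Control, 3.03-fold and 2.36-fold higher. TFPI2, a related Kunitz-type inhibitor of plasmin and other proteases in the matrix, was at 701, 285 and 140 CPM, 5.01-fold and 2.03-fold higher. With total counts in place of scaled library sizes, TFPI2 in the miR454 knockout was at a log2 ratio of 0.91 and did not pass. Against LV-vector-34 neither gene passed in either knockout. There TFPI was at 1.27-fold and 0.985-fold, and TFPI2 at 1.74-fold in the miR301a and 0.707-fold in the miR454 knockout. F3, the gene of tissue factor, stood at 5.39, 4.5 and 4.56 CPM and did not pass against either control.

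In all, 8 of the 9 measured genes were higher and 0 lower in each knockout against CRISPRd_Control. Of all measured genes, 10.9% passed in the miR301a knockout (6.72% higher) and 9.71% in the miR454 knockout (6.61% higher). Against LV-vector-34, 5 of 9 were higher in the miR301a knockout (8.84% of all genes passed, 5.2% higher) and 4 of 9 in the miR454 knockout (9.27%, 5.89% higher). Between the knockouts 4 of 9 were higher in the miR301a line (6.4% of all genes passed, 2.76% higher). Since both knockouts share their controls, these counts are not independent of each other, and since the genes were chosen with the ratios known, nothing is read from them. The 4 monocyte and macrophage markers summed to 129 CPM in the miR301a and 160 CPM in the miR454 knockout. The controls stood at 49.4 CPM (CRISPRd_Control) and 68.1 CPM (LV-vector-34). CD68 alone held 112 and 144 CPM of the knockout sums, and 64.9 CPM of the sum in LV-vector-34. CD14 passed as higher in both knockouts against either control, with 239 and 289 counts against 56 in LV-vector-34 (4.4-fold and 5.41-fold). PTPRC, the common leukocyte antigen CD45, had 75 counts in the miR301a knockout against 1 and 3 in those controls, while CSF1R, the receptor of macrophage growth factor, had 0 in both knockouts. Hepatocyte markers summed to 4.04 and 1.65 CPM, against 1.37 CPM in CRISPRd_Control and 2.35 CPM in LV-vector-34. Megakaryocyte and platelet markers summed to 5.71 and 5.43 CPM, against 7.14 and 7.01 CPM. Fibroblast markers summed to 11.6 and 16.2 CPM, against 19.2 and 36 CPM. THY1 had 0 counts in both knockouts against 81 in CRISPRd_Control, and COL3A1 was 43.2-fold and 33.9-fold lower than in LV-vector-34 (4 and 5 counts against 178). THY1 was not measured against LV-vector-34, nor COL3A1 against CRISPRd_Control. In neither knockout did a fibroblast marker pass as lower against both controls. The part of the leukocyte and fibroblast markers in the fibrinogen values was not tested. In bulk RNA, more cells of a type and more RNA per cell cannot be told apart.

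Genes around the fibrinogen cluster gave a mixed picture. PLRG1, a spliceosome component that lies 12521 bases outside it, stood at 39.5, 37.4 and 44.4 CPM in the miR301a knockout, the miR454 knockout and CRISPRd_Control, and did not pass. LRAT, which esterifies retinol and lies 13978 bases from the cluster on its other side, had 55 counts in the miR301a knockout against 8 in CRISPRd_Control and 7 in LV-vector-34. That is 7.31-fold (3.46 to 17.8) and 8.09-fold (3.68 to 21.1) higher. In the miR454 knockout LRAT had 15 counts and fell short of the counts needed. DCHS2 and RBM46, the other protein-coding genes within 500000 bases, were not measured in any of the 9 pairs.

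The library with the PRR11 and SKA2 promoter repressed lay in the opposite direction for fibrinogen. FGA stood at 40.7 CPM in the CRISPRi library against 138 CPM in the mock library, FGB at 24.3 against 133 CPM and FGG at 20 against 92.6 CPM. FGA was 3.38-fold (3.13 to 3.65), FGB 5.49-fold (5 to 6.03) and FGG 4.63-fold (4.17 to 5.15) lower. FGL1, at 7.07 against 17.1 CPM, was 2.42-fold lower. At the start of the cascade the direction turned: F3, at 13 against 4.62 CPM, was 2.81-fold higher (2.22 to 3.59), and its inhibitor TFPI, at 105 against 41.4 CPM, was 2.54-fold higher (2.35 to 2.75). TFPI2 was at 74.4% of the mock library, F5 at 92.8% and F2 at 139%, and none of these passed. The mock library was itself the highest of the 4 control libraries for each chain. Its TFPI level lay under LV-vector-PS (93 CPM) and LV-vector-34 (80.3 CPM) and above CRISPRd_Control (33.5 CPM). These levels come from different tables and are approximate. In this pair 2 of 9 measured genes were higher and 4 lower, and 15.4% of all 15003 measured genes passed (9.43% higher and 5.97% lower). Fibroblast markers summed to 34.6 CPM against 12.7 CPM, megakaryocyte and platelet markers to 15.1 against 4.53 CPM and monocyte and macrophage markers to 83 against 31.5 CPM. The platelet chemokine PPBP held 12.8 CPM of the platelet sum in the CRISPRi library. The part of these markers in the values was not tested.

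**Figure D3:**
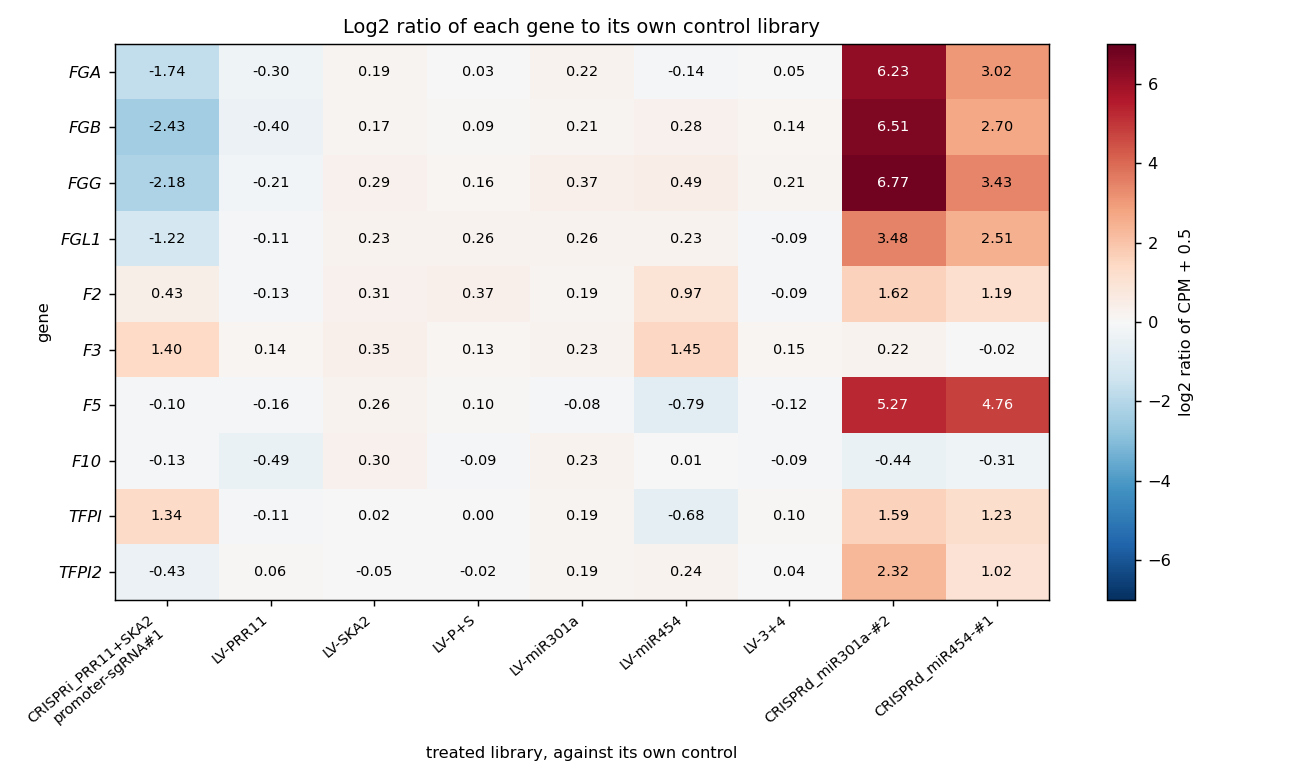
Log2 ratio of CPM + 0.5 of each gene (rows) in the 9 treated libraries (columns) against their own controls, red for higher and blue for lower, with the value printed in each cell. The fibrinogen chains are at -1.74 to -2.43 in the CRISPRi library and 2.70 to 6.77 in the CRISPRd libraries, F3 is at 1.40 and 1.45 in the CRISPRi library and LV-miR454, and F10 was too low to be measured.

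In LV-miR454, F3 alone passed the size rule. F3 stood at 14.5 CPM in LV-miR454, its highest level of the 13 libraries, against 4.97 CPM in LV-vector-34, 5.9 CPM in the library labelled LV-miR301a and 5.58 CPM in the library labelled LV-3+4. It was 2.91-fold higher than the vector (2.3 to 3.72), while its 3′ UTR holds the seed site shown above. That 1 of 9 measured genes passed stands beside 6.39% of all genes in this pair, with 2.97% higher. F2, at 8.34 against 4.03 CPM, had a plain ratio of 2.07 (1.57 to 2.76) but a log2 ratio of 0.97 after the pseudocount, just short of the rule. TFPI was at 49.9 against 80.3 CPM (62.1%) and F5 at 12.6 against 22.2 CPM (56.9%), with intervals under equality but less than 2-fold. The chains moved unequally, with FGA at 0.904-fold, FGB at 1.22-fold and FGG at 1.41-fold of the vector, none of which passed. Fibroblast markers summed to 81.9 CPM in LV-miR454 against 36 CPM in its vector. Of them the collagen chain gene COL1A1 was 3.02-fold and THY1 5.45-fold higher (54 against 10 counts), and the collagen chain gene COL3A1 was 2.94-fold lower. In the library labelled LV-miR301a the fibroblast markers summed to 85.9 CPM, with COL1A1 and COL3A1 both higher, and F3 was at 1.19-fold of the vector there. The part of these markers in the F3 values was not tested.

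In the library labelled LV-3+4, F3 was 2.59-fold and F2 2.22-fold lower than in LV-miR454, and 6.85% of all genes passed in that comparison. Against its own vector, 0 of 9 genes passed there (0.646% of all genes), and 0 of 9 in the library labelled LV-miR301a (0.731%). Over LV-vector-34 and these libraries, each of the 9 genes varied by at most 1.29-fold, the value of FGG.

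In the PRR11 and SKA2 libraries, too, none of the 9 measured genes passed the rule. Of all genes measured, 0.299% passed in LV-PRR11, 0.252% in the library labelled LV-SKA2 and 0.261% in the library labelled LV-P+S. FGA was at 105 CPM in LV-vector-PS, 85.2 in LV-PRR11, 120 in the library labelled LV-SKA2 and 107 in the library labelled LV-P+S. FGB was at 65.1, 49.3, 73.1 and 69.2 CPM and FGG at 42.3, 36.4, 51.9 and 47.5 CPM in the same order. LV-PRR11 was lowest for each chain, at 81%, 75.7% and 86.1% of the vector, with counting intervals under equality. Over the 4 libraries the widest range was 1.48-fold (FGB) and the narrowest 1.08-fold (TFPI2).

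The balance of the chains was compared per kb of joined annotated exons, so the size of each share depends in part on the annotation. FGA made up 24.7 to 43.2% of the summed chains over the 13 libraries, FGB 33.2 to 50.1% and FGG 17.4 to 25.2%. While their sum ranged from 32.1 to 2913 CPM, no chain exceeded 50.1% or fell under 17.4%. LV-miR454 had the lowest FGA share and the highest FGB and FGG shares. FGB led in CRISPRi_Mock sgRNA, in the 4 lentiviral microRNA libraries and in CRISPRd_miR301a-#2, and FGA led in the other 7.

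**Figure D4:**
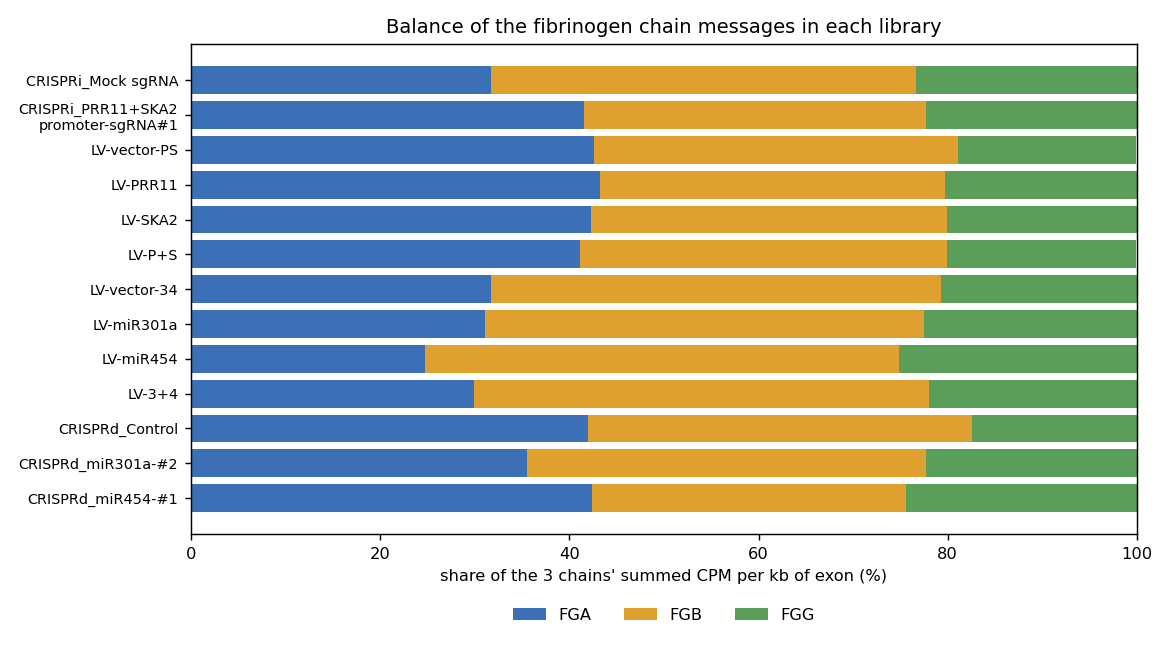
Share of each fibrinogen chain in the summed CPM per kb of exon (%), as stacked bars for the 13 libraries. FGA runs from 24.7 to 43.2%, FGB from 33.2 to 50.1% and FGG from 17.4 to 25.2%, while the sum of the chains differs between 32.1 and 2913 CPM.

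Genes whose 9 log2 ratios were most like those of each member were found among 11946 genes measured in all pairs. For FGA they were FGG (r = 0.996), LRP11 (0.993) and FGB (0.992), for FGB they were FGG (0.997), FOXC1 (0.995) and FGA, and for FGG they were FGB, FGA and FOXC1 (0.992). The chains were thus among each other's closest genes over these pairs. TFPI2 was nearest to LRP11 (0.994), FGA (0.988) and FGG (0.987). FGL1 was nearest to SCEL, CAMK2N1 (0.995 each) and HGD (0.994), and F5 to MGST3, CREBL2 (0.997 each) and SLC17A3 (0.996). F2 was nearest to TMEM64 (0.976), RAET1E (0.971) and C3orf80 (0.957). TFPI was nearest to CREBRF (0.997), APLP2 (0.993) and TSPAN31 (0.992). F3 stood apart, nearest to NAGK (0.984), CHPF2 (0.983) and HECW2 (0.977), and its r with FGA was -0.437. The pairs share control libraries and the CRISPRd pairs carry most of the range, so each r describes 9 pairs of single libraries.

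Other genes of coagulation were read from lists. Of 10 other procoagulant factors 4 were measured, and in the miR301a knockout F7, the partner of tissue factor, was 5.11-fold and F13B, a carrier of factor XIII, 17.8-fold higher than in CRISPRd_Control (96 against 20 and 67 against 4 counts). Neither passed against LV-vector-34. In the miR454 knockout F13B was 41.2-fold higher than CRISPRd_Control, on 4 control counts, and 2.49-fold higher than LV-vector-34. F7 was 4.7-fold lower in the CRISPRi library (8 against 35 counts). Of 5 measured anticoagulant genes, PROS1, the cofactor protein S, was 3.25-fold and 2.35-fold higher in the miR301a and miR454 knockouts than in CRISPRd_Control, and did not pass against LV-vector-34. THBD, the thrombin receptor thrombomodulin, was 2.8-fold higher in the CRISPRi library and 2.97-fold higher in LV-miR454, the libraries where F3 was higher. THBD was 3.2-fold lower in the miR301a knockout against CRISPRd_Control, where it stood at 16.1 CPM, but at 74.8% of LV-vector-34 (6.7 CPM) it did not pass. PROC, the gene of protein C, was 3.9-fold lower in the miR454 knockout (9 against 38 counts). Against LV-vector-34, PROC was 3.14-fold lower in the miR301a and 7.2-fold lower in the miR454 knockout, and THBD was 2.56-fold higher in the latter.

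Among receptors, F2R, the thrombin receptor PAR1, and F2RL2, its relative PAR3, were 2.43-fold and 2.27-fold lower in LV-miR454. Against LV-vector-34 they were also lower in the knockouts, F2R by 2.53-fold and 2.44-fold and F2RL2 by 2.92-fold and 3.75-fold in the miR301a and miR454 lines, and F2RL1, the receptor PAR2, was 2.56-fold lower in the miR301a line. Against CRISPRd_Control, 0 of the 3 measured receptors passed in either knockout (10.9% and 9.71% of all genes). TGM2, a transglutaminase that can crosslink fibrin, was 4.44-fold higher in the CRISPRi library, and 2.98-fold and 3.06-fold higher in the knockouts against CRISPRd_Control. Against LV-vector-34 it was 3.23-fold and 3.32-fold higher. The fibrinogen receptors ITGB3 and ITGA5 were 12.7-fold and 2.8-fold higher in the CRISPRi library, and ITGB3 was 2.94-fold lower in the miR454 knockout against CRISPRd_Control (11 against 35 counts). Against LV-vector-34, on 24 counts, ITGB3 was at 48.1% (21.3 to 102%) and did not pass. ICAM1, an adhesion molecule that binds fibrinogen, was 4.6-fold lower in LV-miR454 and 6.36-fold lower in the miR301a knockout against CRISPRd_Control (3.32-fold against LV-vector-34). None of the 5 genes of the vitamin K cycle and factor secretion passed in any of the 9 pairs. Of all measured genes, 0.252% to 15.4% passed in these pairs, so nothing is read from that count.

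Transcription factors and interleukin-6 signalling genes of the acute phase response were also listed. In the CRISPRi library, where the chains were lower, IL6 was 18.5-fold higher (119 against 6 counts). In the miR301a knockout FOXA1, CEBPD and the interleukin-6 receptor subunit IL6ST were 2.82-fold, 2.65-fold and 2.23-fold higher than in CRISPRd_Control. Of these, FOXA1 alone also passed against LV-vector-34, at 2.25-fold. In the miR454 knockout CEBPD was 2.6-fold and IL6 14.6-fold higher against CRISPRd_Control (121 against 9 counts for IL6). Against LV-vector-34, CEBPD was at 1.91-fold and did not pass, while IL6 passed as higher (121 counts against 0). HNF4A, a liver transcription factor, was 2.14-fold and 2.27-fold lower in the miR301a and miR454 knockouts against LV-vector-34. It did not pass in either knockout against CRISPRd_Control, which itself passed as lower than LV-vector-34 for HNF4A. The HNF4A result thus depends on the control.

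Factors that bind the F3 promoter include EGR1 and the AP-1 proteins. In LV-miR454 4 of 9 passed, all higher, beside 2.97% of all genes: EGR1 3.8-fold, JUN 2.76-fold, FOSL1 2.2-fold and JUNB 2.09-fold. In the CRISPRi library 1 of 9 passed, JUNB at 2.1-fold higher, beside 9.43% of all genes. In the knockouts, where F3 did not pass, EGR1 and FOS were higher against CRISPRd_Control (3.57-fold and 8.49-fold in the miR301a line, 8.42-fold and 11.9-fold in the miR454 line), while FOSL1 was 5.51-fold and 3.24-fold lower. JUN was 2.04-fold lower in the miR301a line. Against LV-vector-34, EGR1 was 2.25-fold and FOSL1 2.12-fold lower in the miR301a line, and 0 of 9 passed in the miR454 line (9.27% of all genes).

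Of 22 other liver secretory and acute phase genes, 10 were measured in the miR301a knockout, and 7 were higher and 0 lower against CRISPRd_Control, beside 6.72% and 4.15% of all genes (median log2 ratio 1.58, against -0.01 over all genes). They were led by CP, the copper carrier ceruloplasmin (12.6-fold), VTN, vitronectin (7.83-fold), APOH, beta-2-glycoprotein I (7.58-fold), and SERPINA1, alpha-1-antitrypsin (12-fold on 10 control counts). In the miR454 knockout 5 of 8 were higher and 0 lower, beside 6.61% and 3.1% of all genes. SERPINA1 (18.8-fold, on 10 control counts), CP (9.03-fold), VTN (7.29-fold) and LBP, which binds bacterial lipopolysaccharide (4.49-fold), led them. Against LV-vector-34, 5 of 10 and 5 of 8 were higher, beside 5.2% and 5.89% of all genes. A gene under 1 CPM in the control was measured only where the knockout was higher, so it could not come out lower. In the miR301a line against LV-vector-34 this held for AHSG (0.576 CPM), SAA1 (0.366 CPM) and SAA2 (0.471 CPM in that control). Since the list was also chosen with earlier results known, nothing is read from these shares or the median. VTN was 5.41-fold and 5.05-fold and the acute phase protein SAA1 12.1-fold and 6.44-fold higher (82 and 43 counts against 7), and CP passed in neither. APOH (4.54-fold) and AHSG, fetuin-A (3.56-fold), were also higher in the miR301a line, and SERPINA1 (2.72-fold) and AMBP (2.87-fold) in the miR454 line. SAA1 and AMBP did not pass in the miR454 line against CRISPRd_Control. In the CRISPRi library APOH was 3.52-fold lower, while SERPINA3, AFP, TTR (23 against 4 counts) and VTN were higher by 4.79-fold, 4.27-fold, 5.36-fold and 2.08-fold. In LV-miR454 CP was 5.2-fold lower.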

How the data were processed

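Poly(A) RNA of 13 A549 libraries was sequenced. The submitters' processing notes name GRCh38.p13, Bowtie2 2.3.5.1 and RSEM 1.3.3. No source used here gives a strand setting or annotation release, so overlapping and antisense genes cannot be told apart. The authors deposited 3 tables of expected counts, which were rounded. Numbered copies of a symbol (4840 in the microRNA and CRISPRd table, 2.02% of counts) were summed, and 181 entries without a gene name (0.355% and 0.431% of counts) were left out of the CRISPRi table. TMM scaling of library sizes (edgeR 4.0.16 in R 4.3.3) was done per table. DESeq2 1.42.0 size factors were an alternative. A gene was measured with 20 counts over a pair and 1 CPM in either library, and passed at 2-fold on log2(CPM + 0.5) with an exact Clopper-Pearson 95% interval that excludes equality. A gene under 1 CPM in 1 library of a pair was thus measured only if it was higher in the other. Folds are plain CPM ratios. The reads carry no molecular identifiers, so intervals hold counting error alone. The rule was run on simulated counts that vary by counting error alone, so that run cannot show how it deals with variation between cultures. Members and lists were chosen with earlier results of these data known. Named genes were the 10 members, up to 4 passing genes per list and pair, and the 3 genes most like each member. A regulator in 1 list and its promoter motif are not reported here. Neighbours of the cluster and single markers were added after their values were seen. Positions, exon lengths and 3′ UTRs came from GENCODE on GRCh38, and promoters and microRNAs from RefSeq.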

Additional observations from a re-analysis of the deposited data

How the results depend on the processing

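With 1 library per group, no library could be left out, and depth limits F10 and ratios on few control counts. No paired analysis was possible because every group holds 1 library and the labels give no shared replicate numbers. Under 5 settings of scaling, pseudocount and copy summing, 448 of 450 log2 ratios of the 10 genes moved by less than their counting interval (the others were TFPI2 in the knockouts with total counts), and none that passed changed sign. The control mattered more. Against LV-vector-34 in place of CRISPRd_Control, the count of passing genes went from 8 to 5 (CRISPRd_miR301a-#2) and from 8 to 4 (CRISPRd_miR454-#1), and in the latter TFPI (-0.02) and TFPI2 (-0.50) turned sign on the log2 scale. Against CRISPRd_Control in place of LV-vector-34, 8 genes passed in the library labelled LV-miR301a, 8 in LV-miR454 and 7 in the library labelled LV-3+4. With LV-miR454 as its reference, 2 passed in the library labelled LV-3+4. In LV-miR454 the count went from 1 to 2 (pseudocount 0.1), 4 (1.5-fold) and 0 (3-fold). At 3-fold, 3 genes in place of 6 passed in the CRISPRi library and 5 in place of 8 in CRISPRd_miR454-#1. In each of these the cause was not tested.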
